A study of Mus musculus with 12 samples.

Results

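The clade B serpin genes *Serpinb9*, *Serpinb9b*, *Serpinb1a*, *Serpinb2*, *Serpinb6a* and *Serpinb8* were followed across 12 RNA-seq libraries of synovial macrophages. They were taken by gene symbol and make up 6 of the 26699 genes counted. All 6 passed the filter on low counts, which left 11927 genes for testing. The set was chosen by its measured counts, because *Serpinb9* and *Serpinb9b* differed with calcitonin gene-related peptide (CGRP) mainly in one macrophage subset. The CGRP differences of the members are therefore given as values with standard errors and without p-values. Members past the threshold in these contrasts are counted as a description only. The comparison of the subsets without CGRP was tested, but it shares its libraries with the contrasts behind that choice.

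The cells came from synovium, the membrane that lines the joint, of mice given as C57BL/6 in the labels and C57BL/6J in the study's methods, with no age in the labels. Explanted tissue was kept for 4 h with 100 nM CGRP, a peptide released by sensory nerve endings, or without it (control), then digested and sorted. IAIE denotes sorted MHCII+CD11c- macrophages and CD11c denotes sorted CD11c+MHCII+ macrophages. There were 3 libraries in each of the 4 groups, IAIE control, IAIE CGRP, CD11c control and CD11c CGRP. The labels do not say whether the 3 libraries of a group came from separate animals or cultures, so the tests measure the spread between these libraries, which may be partly technical. The whole explant was exposed to CGRP before sorting, so other cells of the tissue saw the peptide too.

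Serpins are protease inhibitors that present a reactive centre loop as bait. When the target protease cleaves the loop, the serpin changes shape and holds the enzyme in a covalent complex. Clade B members differ from most serpins in lacking a classical secretion signal, and they act largely inside the cell, where they shield it from proteases of granules and lysosomes. *Serpinb9* encodes an inhibitor of granzyme B and is known from cytotoxic lymphocytes and antigen-presenting cells, and *Serpinb9b* is its close rodent paralog. *Serpinb1a* encodes an inhibitor of neutrophil serine proteases such as elastase, *Serpinb6a* an inhibitor of cathepsin G, and *Serpinb8* an inhibitor of furin. *Serpinb2* encodes plasminogen activator inhibitor type 2, a protein made in quantity by stimulated monocytes and macrophages.

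In the mouse genome (mm10) the 6 genes lie in clade B clusters on chromosomes 13 and 1. *Serpinb1a* (chr13:32842092-32851185, minus strand), *Serpinb9* (chr13:33003250-33017957, plus strand), *Serpinb9b* (chr13:33027416-33041884, plus strand) and *Serpinb6a* (chr13:33917918-34002794, minus strand) share the first. *Serpinb2* (chr1:107511423-107535478, plus strand) and *Serpinb8* (chr1:107590006-107610484, plus strand) lie in the other, with *Serpinb10* between them. *Serpinb9* and *Serpinb9b* are adjacent clade B genes, and their coding sequences were identical at 967 of 1119 aligned bases (86.4%). Every other pair of members was between 64% and 70.4% identical. The stretch of 60 coding bases in which *Serpinb9* and *Serpinb9b* differ most, bases 595 to 654 counted from the first base of the start codon, is shown because it is where reads tell this pair apart. Capitals mark the 21 positions that differ.
Serpinb9 coding bases 595 to 654: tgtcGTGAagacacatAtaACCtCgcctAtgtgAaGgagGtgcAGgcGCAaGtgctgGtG
Serpinb9b coding bases 595 to 654: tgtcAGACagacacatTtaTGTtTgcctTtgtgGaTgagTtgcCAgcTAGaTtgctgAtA
The longest run of identical bases between transcripts of this pair was 62, shorter than the 150-base reads. Only 0.378% of the 50-base words in *Serpinb9* transcripts occurred in another gene, and all of these were in *Serpinb9b*.

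Other members shared more sequence with other genes. *Serpinb8* shared 0.165% of its 50-base words, *Serpinb1a* 2.81%, *Serpinb9b* 5.38%, *Serpinb2* 10.4% and *Serpinb6a* 25.1%. For *Serpinb2* these were words of *Serpinb10*, whose exons cover 12.4% of its exon bases on the same strand. The exons of *Serpinb6a* overlap on the opposite strand with those of *Nqo2* (14.1% of its exon bases), *1110046J04Rik* (10.8%) and *Ripk1* (4.46%), and those of *Serpinb9b* with *Gm36099* (8.3%). The strand setting used for counting is not given in the sources used here, so the counts of these parts of *Serpinb6a* and *Serpinb9b*, and of the part that *Serpinb2* shares with *Serpinb10*, are uncertain.

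RefSeq start sites (GRCm38.p6) were matched for 5 of the 6 members, with 7 promoter windows of 300 bases (250 before and 50 after the start). The windows of the adjacent pair and the first *Serpinb2* window are shown because these 3 genes had the largest CGRP differences in IAIE libraries. Capitals mark matches, on either strand, to the motif letters searched.
Serpinb9 (chr13:33004291-33004590, plus strand): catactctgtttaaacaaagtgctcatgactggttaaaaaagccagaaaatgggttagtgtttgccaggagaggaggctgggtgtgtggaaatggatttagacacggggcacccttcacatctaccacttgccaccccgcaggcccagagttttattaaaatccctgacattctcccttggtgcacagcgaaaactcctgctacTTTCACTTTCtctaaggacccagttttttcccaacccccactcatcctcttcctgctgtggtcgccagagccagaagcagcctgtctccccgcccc
Serpinb9b (chr13:33027164-33027463, plus strand): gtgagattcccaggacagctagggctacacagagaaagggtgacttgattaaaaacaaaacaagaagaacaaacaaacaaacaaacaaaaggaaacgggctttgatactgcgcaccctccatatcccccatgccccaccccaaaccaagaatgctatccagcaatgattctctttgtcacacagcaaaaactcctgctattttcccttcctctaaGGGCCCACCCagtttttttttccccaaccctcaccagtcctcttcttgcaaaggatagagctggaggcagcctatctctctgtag
Serpinb2 (chr1:107511173-107511472, plus strand): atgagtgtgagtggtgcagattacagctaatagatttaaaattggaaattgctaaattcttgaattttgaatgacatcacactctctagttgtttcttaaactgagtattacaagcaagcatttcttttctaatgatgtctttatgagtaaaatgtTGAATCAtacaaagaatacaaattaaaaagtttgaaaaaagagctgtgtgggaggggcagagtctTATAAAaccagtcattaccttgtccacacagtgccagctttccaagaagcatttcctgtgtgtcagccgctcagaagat
The *Serpinb9* window holds 1 match to the interferon-stimulated response element (GAAA, any 2 bases, GAAA), found in 3.44% of all 32851 mouse windows, and *Serpinb9b* has none, while 1 of the *Serpinb6a* windows also holds 1. The *Serpinb9b* window holds 1 match to the NF-kB letters (GGG, any 5 bases, CC), which 50.8% of all windows contain. The *Serpinb2* window holds 1 match to the AP-1 letters TGANTCA, found in 7.81% of all windows, and 1 to the TATA box letters TATAAA, found in 13.6%. *Serpinb8* has 2 AP-1 matches and 1 NF-kB match, and the other *Serpinb6a* window has 2 NF-kB matches. No member window holds the cAMP response element TGACGTCA (1.79% of all windows), the shorter form TGACG contained in it (20.8%) or the PU.1 letters GAGGAAGT (3.2%). A match in these windows is a description of the letters and not evidence of binding.

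The libraries held between 2127191 and 5649698 counted reads. In a given library, 3 reads of a gene corresponded to 0.534 to 1.34 CPM, the read count scaled to library size, which sets the level below which a gene could not be followed. *Itgax*, which encodes CD11c, was between 1.24 and 10.7 CPM in the 6 IAIE libraries and between 107 and 270.1 CPM in the 6 CD11c libraries, with no overlap. The summed level of 6 dendritic cell genes was 85.8 to 168 CPM in IAIE and 617 to 771 CPM in CD11c libraries, while that of 7 macrophage genes was 5014 to 6174 CPM in IAIE and 3885 to 4814 CPM in CD11c libraries. The 3 T and NK cell genes found in the tables summed to at most 1.24 CPM in any library. Other marker sums differed between groups. The 3 B cell genes were at 27.3 to 72.2 CPM in IAIE control, 15.1 to 27.3 in IAIE CGRP, 3.74 to 8.57 in CD11c control and 0.356 to 2.97 CPM in CD11c CGRP libraries. The 4 mast cell genes ranged from 0.243 to 60.4 CPM in IAIE and from 11.7 to 114 CPM in CD11c libraries. The summed level of the 4 platelet genes was higher with CGRP in both subsets, without overlap. It was 269.9 to 414 against 574 to 721 CPM in IAIE and 51.7 to 98.7 against 159.9 to 249.9 CPM in CD11c libraries. *Pf4* and *Ppbp* carried this sum, and *Itga2b* and *Gp9* were at no more than 5.45 and 4.90 CPM in any library. With CGRP, mean *Itga2b* went from 4.23 to 0.881 CPM in IAIE and from 1.51 to 2.00 CPM in CD11c. Mean *Gp9* went from 1.59 to 2.05 CPM in IAIE and from 2.94 to 0.891 CPM in CD11c. The part of these cells in the members' values was not tested. In bulk libraries, fewer cells that use a gene and less RNA per cell cannot be told apart.

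*Serpinb9*, the granzyme B inhibitor, was low in IAIE control libraries and 4.99-fold higher in IAIE CGRP libraries, while CD11c libraries carried it at a high level with and without the peptide. The 3 IAIE control libraries were at 3.72, 6.88 and 7.16 CPM and the 3 IAIE CGRP libraries at 26.7, 36.7 and 24.5 CPM. The 3 CD11c control libraries were at 80.4, 113 and 107 CPM and the 3 CD11c CGRP libraries at 112, 114 and 162 CPM. The IAIE groups did not overlap, the CD11c groups did, and every CD11c library was above every IAIE library. The mean went from 5.92 ± 1.91 to 29.3 ± 6.48 CPM in IAIE (SD, n = 3), a log2 fold change of 2.32 ± 0.28 (SE). In CD11c it was 100.3 ± 17.5 in control and 129 ± 28.6 CPM in CGRP libraries, a log2 fold change of 0.36 ± 0.20. The difference between these fold changes, CD11c minus IAIE, was -1.95 ± 0.34 on the log2 scale.

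*Serpinb9b* was nearly absent from IAIE control libraries, with 0, 4 and 1 reads, and was counted 33, 43 and 59 times in the 3 IAIE CGRP libraries. In CPM these were 0, 1.15 and 0.448 against 8.73, 10.4 and 11.1. Only 1 of the 3 IAIE control libraries was above 3 reads. The pooled counts, 5 against 135 reads, gave a ratio of 18.3 after scaling, with a 95% exact interval of 7.65 to 57.3 that covers counting error only. The 3 CD11c control libraries were at 22.0, 27.4 and 48.1 CPM and the 3 CD11c CGRP libraries at 41.0, 88.1 and 78.5 CPM, so these groups overlapped. The log2 fold change with CGRP was 4.11 ± 0.61 in IAIE and 1.07 ± 0.32 in CD11c, a difference of -3.04 ± 0.74. The IAIE value rested on the few control reads and was 5.59 without IAIE control library 2 and 3.51 without IAIE control library 1.

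**Figure D1:**
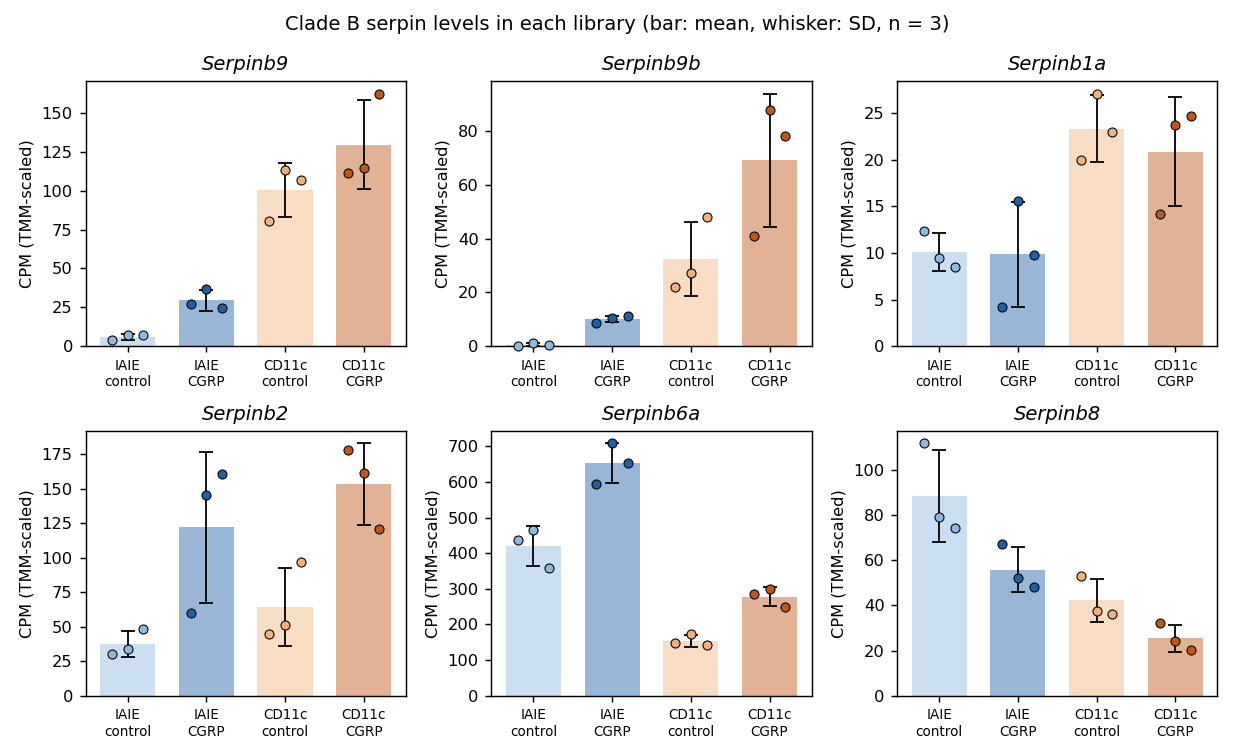
Level of each member in CPM (vertical axes, starting at 0 and different for each gene) in the 4 groups of 3 libraries. Points are libraries, bars are means and whiskers are SDs. *Serpinb9* and *Serpinb9b* are lowest in IAIE control and highest in the CD11c groups, *Serpinb6a* and *Serpinb8* are higher in IAIE, and *Serpinb2* is higher in CGRP libraries of both subsets.

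With CGRP, IAIE libraries reached part of the level that CD11c libraries had without it. Mean *Serpinb9* in IAIE was 5.91% of the CD11c control mean in control libraries and 29.2% in CGRP libraries. For *Serpinb9b* the shares were 1.64% and 31.1%. Some other genes higher in CD11c control libraries are given against that same mean as a description. They were picked, and *Ramp3* and *Mmp25* were nearer to *Serpinb9* in pattern, as given below. *Itgax* in IAIE was 2.62% of the CD11c control mean in control and 2.27% in CGRP libraries, and *Ccr7*, a chemokine receptor of mature dendritic cells, was at 17.6% and 18.1%. The lectin gene *Cd209a* was at 18.0% and 11.6%, the dendritic cell gene *Zbtb46* at 15.4% and 13.8%, and the MHC class II gene *H2-Ab1* at 36.8% and 22.0%. Against the CD11c CGRP mean, IAIE CGRP libraries were at 22.6% for *Serpinb9* and 14.6% for *Serpinb9b*. They were at 4.66% for *Itgax*, 7.56% for *Ccr7*, 43.5% for *Cd209a*, 17.8% for *Zbtb46* and 34.8% for *H2-Ab1*. Within CD11c, *Itgax* and *Cd209a* were themselves lower with CGRP (log2 fold change -1.03 ± 0.30 and -1.91 ± 0.18), and *Ccr7* was higher (1.26 ± 0.17). There, *H2-Ab1* was at -0.66 ± 0.11 and *Zbtb46* at -0.37 ± 0.23. The part of CD11c+ cells in the IAIE values was not tested. The reads of *Serpinb9b* per 100 reads of *Serpinb9* were 0, 16.7 and 6.25 in IAIE control and 28.5 to 45.4 in IAIE CGRP libraries. They were 24.1 to 44.9 in CD11c control and 36.8 to 77.1 in CD11c CGRP libraries.

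*Serpinb2*, encoding plasminogen activator inhibitor type 2, was higher with CGRP in both subsets. IAIE control libraries were at 30.1, 33.8 and 48.3 CPM and IAIE CGRP libraries at 59.6, 145 and 161 CPM. CD11c control libraries were at 44.9, 51.0 and 96.8 CPM and CD11c CGRP libraries at 178, 161 and 121 CPM. The groups did not overlap in either subset, although IAIE CGRP library 1 was well below the others of its group and CD11c control library 3 well above the others of its own. The log2 fold change was 1.72 ± 0.32 in IAIE and 1.24 ± 0.31 in CD11c, and the difference between them was -0.48 ± 0.44. *Serpinb10*, which shares exon bases with it, stayed between 0.243 and 6.12 CPM in the 12 libraries.

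*Serpinb6a*, the cathepsin G inhibitor, had the highest counts of the set and was also higher with CGRP in both subsets. It was at 438, 464 and 359 CPM in IAIE control, 595, 708 and 653 CPM in IAIE CGRP, 148, 173 and 141 CPM in CD11c control and 287, 299 and 248 CPM in CD11c CGRP libraries. None of the 4 groups overlapped another. The log2 fold change with CGRP was 0.63 ± 0.13 in IAIE and 0.85 ± 0.13 in CD11c, the smallest standard errors among the members. *Serpinb8*, the furin inhibitor, was lower with CGRP in both subsets. Its 3 IAIE libraries went from 112, 79.1 and 74.3 CPM in control to 67.0, 52.2 and 47.9 CPM with CGRP, and its 3 CD11c libraries from 53.0, 37.4 and 36.0 CPM to 32.0, 24.0 and 20.1 CPM. Control and CGRP libraries did not overlap in either subset. The log2 fold change was -0.67 ± 0.22 in IAIE and -0.72 ± 0.23 in CD11c, and *Serpinb8* was the only member at a lower level with CGRP in all libraries of both subsets.

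*Serpinb1a*, the elastase inhibitor, gave no direction with CGRP. IAIE control libraries were at 12.4, 9.46 and 8.51 CPM and IAIE CGRP libraries at 4.23, 15.6 and 9.81 CPM. CD11c control libraries were at 20.0, 27.1 and 23.0 CPM and CD11c CGRP libraries at 14.2, 23.8 and 24.7 CPM. The groups overlapped in both subsets, and the log2 fold changes of -0.04 ± 0.38 and -0.17 ± 0.35 were within their standard errors of 0. Neutrophils are a known source of this serpin, and the summed level of 6 neutrophil genes varied from 2.24 to 124 CPM in IAIE control, 35.7 to 115 in IAIE CGRP, 0.408 to 175 in CD11c control and 3.84 to 81.2 CPM in CD11c CGRP libraries. Their part in the *Serpinb1a* level was not tested.

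**Figure D2:**
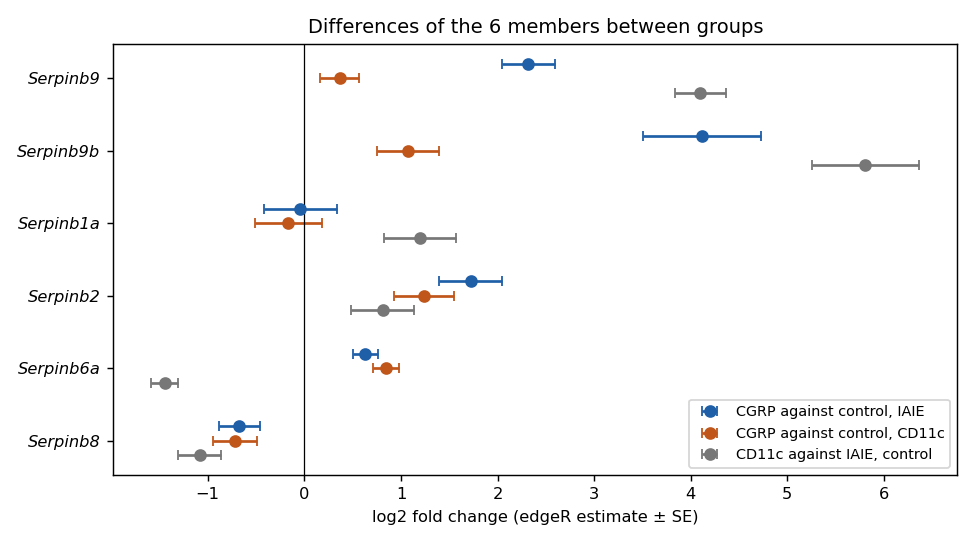
Estimated log2 fold changes (horizontal axis, edgeR) with their SE (whiskers) for the 6 members in 3 comparisons, CGRP against control in IAIE, CGRP against control in CD11c, and CD11c against IAIE in control libraries. The CGRP estimates of *Serpinb9* and *Serpinb9b* are 2.32 and 4.11 in IAIE against 0.36 and 1.07 in CD11c, whereas those of the other 4 members lie close together in both subsets.

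Counted over the set, 4 of 6 members were past an edgeR adjusted p of 0.05 with CGRP in IAIE, all higher, where 9.21% of all tested genes were past it and 5.32% past it and higher. In CD11c it was also 4 of 6, with 3 higher and 1 lower, against 10.9% of all genes (6.29% higher and 4.59% lower). For the difference between subsets it was 1 of 6, *Serpinb9*, whose value was below 0, against 0.151% of all genes in either direction and 0.0168% below 0. Control and CGRP libraries did not overlap for 5 of 6 members in IAIE (24.9% of all genes) and for 3 of 6 in CD11c (29.2%), and these 3 did so in the same direction in both subsets (11.2%). The median log2 fold change of the members was 1.18 in IAIE and 0.61 in CD11c, where the medians of all genes were -0.023 and 0.0016. Nothing can be read from these counts, since the same contrasts led to the choice of the genes. Other fits also changed the number of all genes called, which was 18 for the difference between subsets in the fit as reported. The member count there was 0 in limma-voom (2 of all genes called) and without IAIE control library 1 (20). It was also 0 without CD11c control library 2 (7) or 3 (6), or IAIE CGRP library 2 (6). In DESeq2 it was 2, with *Serpinb9b* (97 of all genes called). The count in CD11c fell to 1 without CD11c control library 1 (984 of all genes called) or 2 (1019). It fell to 2 without CD11c CGRP library 2 (929) or 3 (973), where the fit as reported called 1298 genes. In IAIE the count was 3 in limma-voom, without *Serpinb9b* (942 of all genes called), and 5 in DESeq2 (1342). It stayed at 4 with any library left out (722 to 1122), where the fit as reported called 1099 genes.

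**Figure D3:**
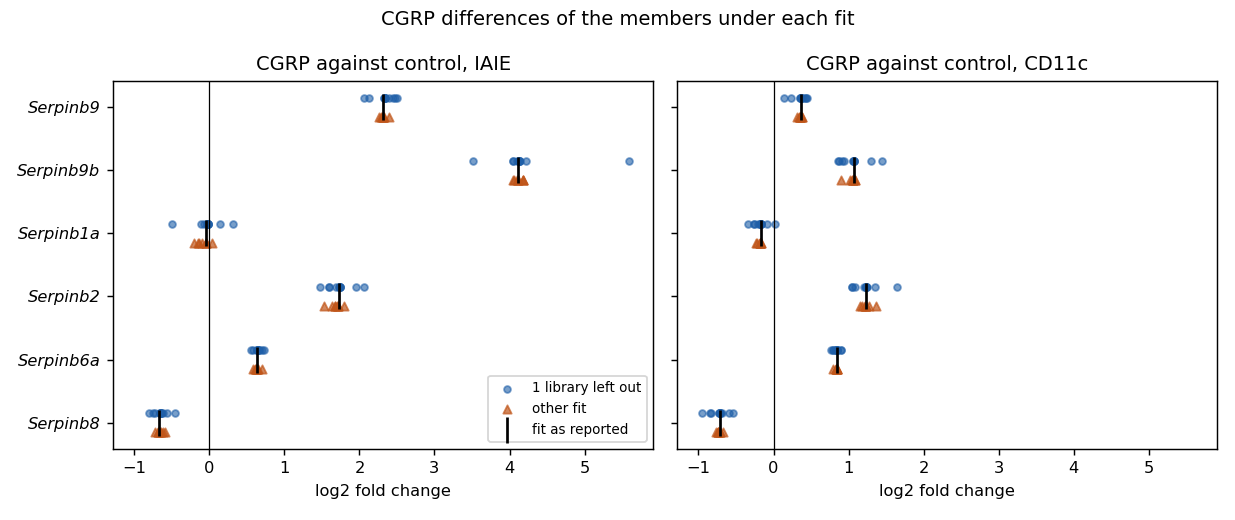
CGRP log2 fold change of each member (horizontal axis, same scale in both panels) in IAIE and CD11c under every fit tried. The bar marks the value as reported, circles are the fits with 1 of 12 libraries left out and triangles the fits with another scaling, filter, design or tool. *Serpinb9b* in IAIE moves most, from 3.51 to 5.59, and *Serpinb1a* is the member whose values fall on both sides of 0.

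Without CGRP the subsets differed in most members. *Serpinb9* was higher in CD11c than in IAIE control libraries (log2 fold change 4.10 ± 0.27, edgeR adjusted p 7.03e-09), and so was *Serpinb9b* (5.81 ± 0.56, edgeR adjusted p 5.23e-07). The *Serpinb9b* value rested on the 5 reads of the IAIE control libraries and was 7.27 without IAIE control library 2 and 5.21 without IAIE control library 1. *Serpinb1a* was higher in CD11c by a smaller amount, 1.20 ± 0.37 (edgeR adjusted p 0.0261). *Serpinb6a* was lower in CD11c (-1.45 ± 0.14, edgeR adjusted p 4.26e-07), as was *Serpinb8* (-1.08 ± 0.22, edgeR adjusted p 0.00146). *Serpinb2* was 0.81 ± 0.33 higher in CD11c, which missed the threshold (edgeR adjusted p 0.0894). In all, 3 members were higher, 2 lower and 1 did not pass, against 10.2% and 10.9% of all genes called higher and lower. The 2 groups of control libraries did not overlap for 5 of 6 members, against 34.2% of all genes. The control libraries also led to the choice of the genes. These calls therefore describe the chosen genes, and nothing can be read from the counts.

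2 of these calls depended on the libraries used. *Serpinb1a* did not pass without IAIE control library 2 (adjusted p 0.0774), without IAIE control library 3 (0.0788) or without CD11c control library 2 (0.0711), all from edgeR. *Serpinb2* passed without CD11c control library 1 (edgeR adjusted p 0.0490) and without IAIE CGRP library 1 (0.0292), with only the control libraries in the fit (0.0452) and when any gene with a read was tested (3.40e-05). In the CGRP libraries the subset differences had the same signs and are given as values only. There, 5 of 6 members were past the threshold, against 16.9% of all genes. Nothing can be read from this count, since the CGRP libraries also led to the choice of the genes. The differences were 2.15 ± 0.22 for *Serpinb9*, 2.76 ± 0.35 for *Serpinb9b*, 1.07 ± 0.36 for *Serpinb1a*, 0.33 ± 0.30 for *Serpinb2*, -1.23 ± 0.13 for *Serpinb6a* and -1.13 ± 0.22 for *Serpinb8*.

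Per kilobase of exon, the members changed order between groups. In IAIE control libraries *Serpinb6a* led with a mean of 77.7 CPM per kilobase, followed by *Serpinb8* (18.4) and *Serpinb2* (15.9), whose libraries overlapped, then *Serpinb1a* (4.40), *Serpinb9* (1.69) and *Serpinb9b* (0.159). In IAIE CGRP libraries *Serpinb2* (51.9) was second after *Serpinb6a* (120.5), ahead of *Serpinb8* (11.6) and *Serpinb9* (8.39), whose libraries overlapped, and *Serpinb1a* (4.28) overlapped with *Serpinb9b* (3.01). In CD11c control libraries *Serpinb9* (28.7), *Serpinb6a* (28.5) and *Serpinb2* (27.3) could not be ordered, since neighboring members overlapped, and the same held for *Serpinb1a* (10.1), *Serpinb9b* (9.69) and *Serpinb8* (8.79). In CD11c CGRP libraries *Serpinb2* (65.2) and *Serpinb6a* (51.4) overlapped with each other, as did *Serpinb6a* and *Serpinb9* (37.1). *Serpinb9b* (20.7) came next, and *Serpinb1a* (9.07) and *Serpinb8* (5.29) were last and overlapped.

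Likeness of pattern was measured as the root mean square difference of centered log2(CPM + 1) values over the 12 libraries, among the 8461 genes that averaged 5 CPM or more. Genes nearest to *Serpinb9* were *Ramp3*, which encodes a partner protein of the calcitonin receptor-like receptor (0.52), *Mmp25*, a membrane-bound matrix metalloproteinase (0.55), and *Serpinb9b* (0.57). For *Serpinb9b* they were *Serpinb9* (0.57), *Il2ra*, the interleukin-2 receptor alpha chain (0.65), and *AA467197* (0.74). These differences compare with a root mean square spread of 1.71 for *Serpinb9* and 2.11 for *Serpinb9b* themselves. *Serpinb8* was nearest to *Il17ra* (0.16), the macrophage mannose receptor gene *Mrc1* (0.19) and *Fam111a* (0.21), and *Serpinb6a* to *Fmn1* (0.17), *Dtx4* (0.17) and *Lrp6* (0.19). *Serpinb2* was nearest to *Plgrkt*, a plasminogen receptor gene (0.36), and to *Eno1b* (0.40) and *Pgk1-rs7* (0.40), names given to near copies of glycolytic enzyme genes whose counts may be shared with the originals. The genes nearest to *Serpinb1a* were *D16Ertd472e* (0.28), *Foxp4* (0.30) and *B4galnt1* (0.30).

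Beyond the members, 35 other serpin genes were in the tables, 13 of them of clade B, and 14 of the 35 passed the filter. Among those 14, 1 fell and none rose with CGRP in IAIE, where 3.89% of all genes fell, and 5 rose and none fell with CGRP in CD11c, where 6.29% of all genes rose. None of the 14 rose in IAIE or fell in CD11c at an unadjusted p of 0.05 in edgeR, DESeq2 or limma-voom either. The 5 calls in CD11c became 6 in DESeq2 (1536 of all genes called) and 0 in limma-voom (1545), where 7 were higher at an unadjusted p of 0.05. In control libraries 1 was higher and 5 were lower in CD11c than in IAIE, where 10.2% of all genes were higher and 10.9% lower. Their median log2 fold changes were -0.75, 0.83 and -1.55 in these 3 comparisons. *Serpinb6b*, a clade B neighbor of *Serpinb9* on chromosome 13, was the one higher in CD11c. It was at 0, 0 and 1.79 CPM in IAIE control, 0, 2.67 and 1.89 CPM in IAIE CGRP, 1.63, 12.9 and 18.2 CPM in CD11c control and 19.0, 14.4 and 31.3 CPM in CD11c CGRP libraries. The control groups overlapped, with a log2 fold change of 4.51 ± 1.03 (edgeR adjusted p 0.00375) that missed the threshold in limma-voom (its adjusted p 0.112). That value rested on few IAIE control reads and was 8.57 without IAIE control library 3 and 3.85 without IAIE control library 2. In the CGRP libraries the groups were apart, with 3.77 ± 0.80 (edgeR adjusted p 0.00222), and the value was up to 4.68 in limma-voom. Its CGRP differences of 1.68 ± 1.23 in IAIE and 0.94 ± 0.67 in CD11c did not pass (edgeR adjusted p 0.476 and 0.465).

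*Serpinf1*, encoding the secreted pigment epithelium-derived factor, moved in opposite directions. It fell with CGRP in IAIE, from 14.9, 29.2 and 29.5 CPM to 10.6, 6.32 and 3.02 CPM (log2 fold change -1.90 ± 0.46, edgeR adjusted p 0.0109). It rose in CD11c, from 0.408, 0.935 and 1.93 CPM to 5.18, 7.67 and 5.34 CPM (2.31 ± 0.56, edgeR adjusted p 0.0101). This rise rested on 14 reads in all in the CD11c control libraries, as did the difference between subsets in part. The difference between subsets was 4.21 ± 0.73 (edgeR adjusted p 0.0150). Neither IAIE nor CD11c groups overlapped. The IAIE call was lost without IAIE control library 2 (edgeR adjusted p 0.0533) or IAIE CGRP library 3 (0.0607), and the CD11c call without CD11c control library 2 (0.0553) and in limma-voom (0.104). The CD11c value was 2.97 and the difference between subsets 4.86 without CD11c control library 3.

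*Serping1*, encoding the C1 inhibitor of complement, also rose with CGRP in CD11c, from 0.816, 0.702 and 1.29 CPM to 20.5, 2.97 and 7.47 CPM (log2 fold change 3.40 ± 0.79, edgeR adjusted p 0.00733), a call lost without CD11c CGRP library 1 (2.40, edgeR adjusted p 0.0615) and in limma-voom (0.109). Among the calls in CD11c were also, named after their values were seen, *Serpina3n* (edgeR adjusted p 0.0209) and *Serpine2* (edgeR adjusted p 0.0244), both with at most 1.29 CPM in CD11c control libraries. Without CGRP, *Serpinf1* (-4.33 ± 0.56, edgeR adjusted p 1.45e-05) and *Serping1* (-4.00 ± 0.80, edgeR adjusted p 0.00120) were lower in CD11c than in IAIE, with *Serpinf1* at -4.97 without CD11c control library 3 and *Serping1* at -4.61 with 1 surrogate variable. Both differences and the *Serping1* rise rested on few CD11c control reads, 14 for *Serpinf1* and 11 for *Serping1*.

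**Figure D4:**
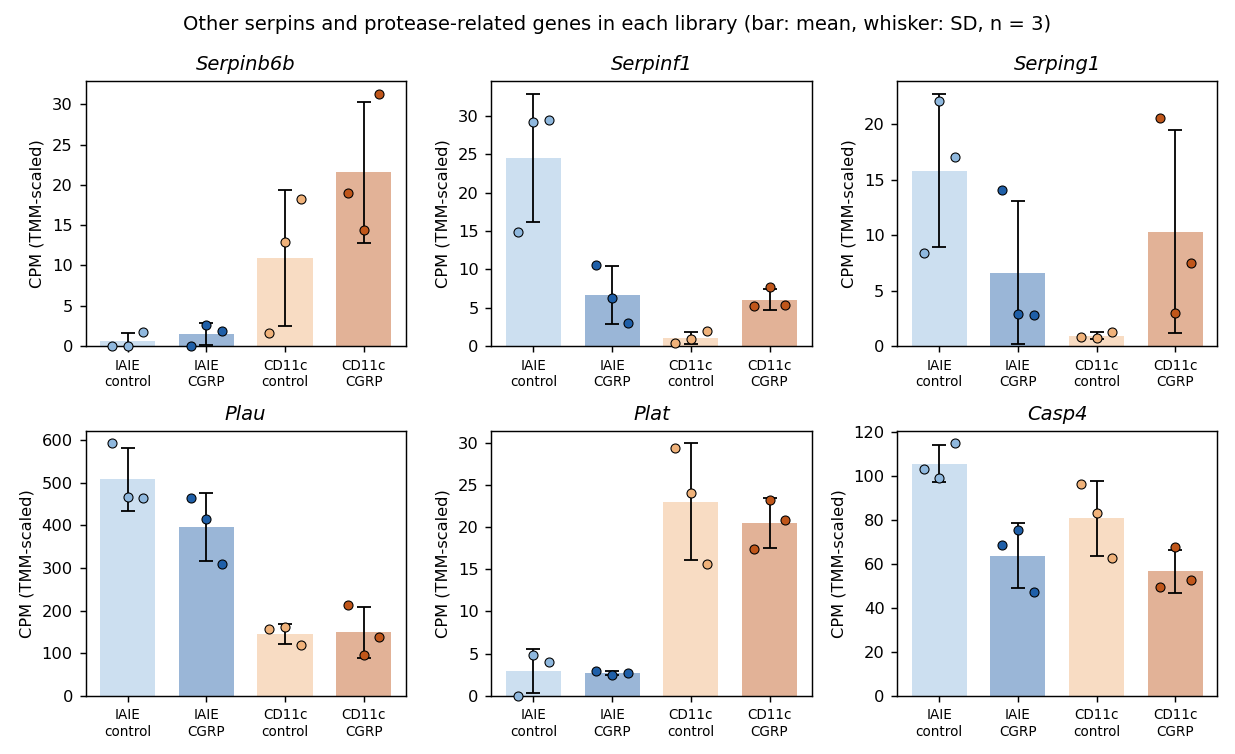
Level in CPM (vertical axes, starting at 0 and different for each gene) of 3 other serpins, the plasminogen activator genes *Plau* and *Plat* and the caspase gene *Casp4* in the 4 groups of 3 libraries, with points for libraries, bars for means and whiskers for SDs. *Serpinf1* falls with CGRP in IAIE and rises in CD11c, *Serpinb6b* and *Plat* are higher in CD11c, *Plau* is higher in IAIE, and *Casp4* falls with CGRP in IAIE.

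Fibroblast marker genes also differed between these libraries. The summed level of 7 fibroblast markers was 18.0 to 25.7 CPM in CD11c control and 62.3 to 353 CPM in CD11c CGRP libraries, and 141 to 1027 CPM in IAIE control and 36.9 to 1537 CPM in IAIE CGRP libraries. *Col1a1*, *Col1a2*, *Pdgfra* and *Dcn* had opposite directions with CGRP in the 2 subsets, as *Serpinf1* did. Their log2 fold changes were -3.05 ± 0.77, -2.37 ± 0.61, -1.55 ± 0.99 and -2.08 ± 0.69 in IAIE. In CD11c they were 2.27 ± 0.88, 1.99 ± 0.69, 3.96 ± 1.45 and 4.88 ± 0.84. *Prg4* was higher in both subsets (4.57 ± 1.52 and 4.96 ± 1.85). With 3 libraries in a group, their order can neither link nor separate these genes. *Serping1* was highest in CD11c CGRP library 1, where *Col1a1* was also highest (82.3 CPM), and lowest in library 2, where *Dcn* (104 CPM) and *Prg4* (197 CPM) were highest. The part of fibroblast RNA in the *Serpinf1* and *Serping1* values was not tested.

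Of 15 listed target proteases and related genes 13 were in the tables and 6 passed the filter. 1 of the 6 fell with CGRP in IAIE, where 3.89% of all genes fell, none passed in CD11c in edgeR, DESeq2 or limma-voom, and 1 was higher and 1 lower in CD11c without CGRP, where 21.2% of all genes passed in either direction. In CD11c 1 gene, *Casp4*, was lower with CGRP at an unadjusted p of 0.05 in edgeR (-0.51 ± 0.20, adjusted p 0.112), and 1 gene was in each of the other tools. *Casp4*, an inflammatory caspase gene, fell in IAIE from 103, 99.2 and 115 CPM to 68.8, 75.6 and 47.1 CPM (log2 fold change -0.73 ± 0.20, edgeR adjusted p 0.0215). This call was lost without IAIE control library 1 (edgeR adjusted p 0.0520) or 3 (0.0831), or IAIE CGRP library 3 (0.126). The urokinase gene *Plau*, whose product is a known target of the *Serpinb2* protein, was lower in CD11c control than in IAIE control libraries (-1.81 ± 0.23, edgeR adjusted p 1.05e-05). It was 508 ± 73.3 CPM in IAIE control and 145 ± 22.9 CPM in CD11c control libraries (SD, n = 3). The tissue-type activator gene *Plat* was higher in CD11c (2.95 ± 0.55, edgeR adjusted p 0.000635), by 3.69 without IAIE control library 2, 2.34 without IAIE control library 1 and 3.60 in limma-voom. With CGRP, *Plau* did not pass in IAIE (-0.36 ± 0.22, edgeR adjusted p 0.361) or CD11c (0.05 ± 0.22, edgeR adjusted p 0.937).

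*Furin*, the target of the *Serpinb8* product, was at 640 to 894.6 CPM in all 12 libraries and did not pass with CGRP in IAIE (-0.23 ± 0.12, edgeR adjusted p 0.304) or CD11c (-0.14 ± 0.12, edgeR adjusted p 0.566). The urokinase receptor gene *Plaur* was at 382 to 571 CPM and *Casp1* at 19.6 to 40.3 CPM, and neither passed in either CGRP comparison. The granzyme B gene *Gzmb*, target of the *Serpinb9* product, was at 23.6 CPM in IAIE control library 1 and at no more than 3.67 CPM in the other libraries. The perforin gene *Prf1* was at no more than 0.895 CPM. The cathepsin G gene *Ctsg* and the neutrophil protease gene *Prtn3* were highest in CD11c control library 2, at 5.61 and 17.1 CPM, and *Ctsg* was at no more than 0.931 CPM in the other libraries.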

How the data were processed

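RNA was prepared with a stranded total RNA pico-input kit and sequenced as pairs of 150-base reads. Per the labels and the study's methods, reads were trimmed with Trim Galore, checked with FastQC, aligned to mm10 with HISAT2 and counted per gene with featureCounts. The versions, gene annotation and strand setting are not given in the sources used here. The values used are the raw read counts per gene and library that the authors deposited. A further 6 columns of a combined table that match no sample here were not used.

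edgeR 4.0.16 (R 4.3.3) was run on all 12 libraries with TMM scaling, filterByExpr (minimum count 10, minimum total 15), 1 mean per group, quasi-likelihood tests and Benjamini-Hochberg adjustment over 11927 genes at 0.05. CPM values use the TMM-scaled library sizes. SE is the log2 fold change divided by the square root of the F statistic. Replicates of a group differed by more than sampling noise. The members and lists were chosen with earlier results of these data known. Genes of a list were named when they passed the threshold with a mean of at least 5 CPM, at most 6 per list and comparison by size of change, beside the 3 genes nearest in pattern to each member. Of the genes this rule names, 1 is not reported here. Other scalings, filters, blocks, tools (DESeq2 1.42.0, limma 3.58.1, sva 3.50.0) and leaving out each library were tried. The fit was tested on simulated data.

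Replicate numbers were checked as pairs by correlating deviations from group means over 7618 genes. The IAIE CGRP and CD11c CGRP libraries gave the highest values (r of 0.237, 0.130 and 0.142), and the other 3 group pairs gave between -0.038 and 0.105. Libraries of unlike number were not correlated for comparison, so the check cannot decide which libraries are paired. The labels do not say what a number stands for. Gene positions, lengths and overlaps come from GENCODE vM21 on GRCm38 and promoter windows from RefSeq (GRCm38.p6). Counting intervals and floors cover counting error only.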

Additional observations from a re-analysis of the deposited data

Results flagged for a closer look

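*Serpinf1* was flagged because its CGRP difference had opposite directions in the 2 subsets, with an interaction of 4.21 on the log2 scale (SE 0.73, edgeR adjusted p 0.0150). All 3 IAIE CGRP libraries were below all 3 IAIE control libraries, and all 3 CD11c CGRP libraries were above all 3 CD11c control libraries. The interaction did not pass without IAIE control library 2 (edgeR adjusted p 0.0519), CD11c control library 2 (0.0751) or IAIE CGRP library 2 (0.0544), nor in limma-voom (0.167). It rested in part on 14 reads of *Serpinf1* in the CD11c control libraries. The fibroblast markers *Col1a1*, *Col1a2*, *Pdgfra* and *Dcn* also had opposite directions in the 2 subsets, and the part of fibroblast RNA was not tested.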

How the results depend on the processing

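Under RLE and upper-quartile scaling, the replicate block, the explant block, 1 surrogate variable, the compared libraries alone, DESeq2, limma-voom and no count filter, the members called between subsets without CGRP numbered 5 or 6, and 4 to 6 with a library left out. The whole-table count for that comparison was 2526 as reported, 2233 to 2782 in these fits and 2032 to 2532 with a library left out. The other serpins called with CGRP in CD11c numbered 0 in limma-voom (5 in edgeR) and 1 to 6 with a library left out. Those called in IAIE numbered 0 to 2 with a library left out. Between subsets, 3 were called with only the compared libraries, where 5 could be tested, and 4 to 7 with a library left out. Protease partners called with CGRP numbered 2 in IAIE and 1 in CD11c with no count filter, and 0 to 1 and 0 to 2 with a library left out. With a library left out, the whole-table counts were 929 to 1377 with CGRP in CD11c and 722 to 1122 with CGRP in IAIE. The cause of these shifts was not tested. No direction reversed among the tested values. With the replicate block, 5 of 6 members were past the threshold with CGRP in IAIE, where the whole-table count went from 1099 to 1204. In the interaction it was 2 of 6, where the whole-table count went from 18 to 36. The block changed no call of a gene named in the text outside the members. For the CGRP libraries of the 2 subsets, where the pairing check gave its highest values, the block left 5 members past the threshold. The whole-table count there went from 2012 to 2150. Nothing can be read from the member counts of this paragraph, since the libraries compared also led to the choice of the genes. With 3 libraries a group and as few as 2127191 reads, genes under about 1 CPM could not be followed.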
